A study of Homo sapiens with 4 samples.

Results

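Retinoic acid is a vitamin A derivative that controls transcription, and 9 of the 26364 genes in the deposited tables are described here for their part in it. They were taken by name: STRA6 for retinol uptake, CRABP1 and CRABP2 for binding of retinoic acid in the cytoplasm, CYP26A1 for its breakdown, RARA, RARB and RARG for the receptors, and NR2F1 and NR2F2 for the COUP-TF orphan receptors. All 9 were found in the files and all 9 passed the filter on low counts. The samples were cultures of NTERA2, a human embryonal carcinoma line, grown in high-glucose DMEM with serum, and the labels name no added retinoic acid. Messenger RNA was sequenced in 4 libraries, 2 named BEND3 LacZ (replicates 1 and 3) and 2 named BEND3 sh60 (replicates 1 and 2). The names are taken to mean a control and a hairpin that targets BEND3, a BEN-domain repressor that binds chromatin, which the labels leave unstated. The comparison bears on the question in the title of the series, whether BEND3 holds down genes of differentiation. All libraries come from a single cell line and a single hairpin is named, and nothing in the labels tells whether replicates were separate cultures, so p-values measure only the spread between these libraries, which may be technical.

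NTERA2 is a classic responder to retinoic acid, which drives it out of the pluripotent state and towards neuronal and other fates. Retinol enters cells through the membrane receptor STRA6 and is oxidised to retinoic acid, which the CRABP proteins carry in the cytoplasm and CYP26 enzymes inactivate. In the nucleus retinoic acid binds the receptors RARA, RARB and RARG, which pair with an RXR receptor on DNA and exchange corepressors for coactivators when the ligand binds. RARB, CYP26A1, STRA6, NR2F1 and NR2F2 are themselves known as genes that retinoic acid can induce, so the list holds both machinery and targets.

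A response element of this pathway is a direct repeat of a receptor half-site with a spacer of 5 bases, called DR5. The RefSeq promoter table (GRCh38.p14, a different build from that of the counts) held 21 windows for the 9 genes, each reaching from 250 bases before to 50 bases after an annotated start. A DR5 was searched on both strands as any 2 half-sites in the same orientation, where a half-site reads AGGTCA or the variant AGTTCA, the variant GGGTCA or the variant GGTTCA. It was found in 1 window each of RARB and CYP26A1, against 31 of 35116 windows (0.0883%) in the whole table. The 250 bases before these starts are shown because both carry the element while RARB passed the test below and CYP26A1 did not. Both genes also had windows at other starts without the element. Counts are summed over all exons of a gene, so the test does not tell which start the transcripts came from. Capitals mark the DR5, which lies 53 to 37 bases before the start of RARB at chr3:25428013-25428262 (plus strand) and 90 to 74 bases before that of CYP26A1 at chr10:93073643-93073892 (plus strand).
RARB: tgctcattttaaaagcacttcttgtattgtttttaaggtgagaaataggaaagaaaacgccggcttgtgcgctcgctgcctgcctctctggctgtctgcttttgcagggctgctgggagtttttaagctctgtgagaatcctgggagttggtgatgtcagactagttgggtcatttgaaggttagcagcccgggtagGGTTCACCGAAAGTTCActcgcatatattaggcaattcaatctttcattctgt
CYP26A1: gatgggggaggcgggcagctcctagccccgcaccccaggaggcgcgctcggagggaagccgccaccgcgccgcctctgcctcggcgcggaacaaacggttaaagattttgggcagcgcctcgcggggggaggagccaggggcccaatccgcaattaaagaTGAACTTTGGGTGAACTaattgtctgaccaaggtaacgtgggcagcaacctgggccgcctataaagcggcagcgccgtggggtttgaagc
In RARB the half-sites read GGTTCA and AGTTCA along the gene. In CYP26A1 both read AGTTCA on the opposite strand. Repeats with a spacer of 1 or 2 bases (DR1 and DR2) matched in 0 of the 21 windows, against 46 (0.131%) and 14 (0.0399%) of all windows. A match is a string of letters, not a measured binding site.

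Library totals ran from 30338285 to 44788461 counts. Levels are CPM, a gene's counts scaled to library size with the TMM correction, and 1 count equalled 0.0221 to 0.0333 CPM by library. Throughout, a pair of LacZ values stands for replicates 1 and 3 in that order, and a pair of sh60 values for replicates 1 and 2. For BEND3 itself (chromosome 6, 107386385 to 107435636, hg19) the level was 68.8 and 79.3 CPM in LacZ, against 55.7 and 52.0 CPM in sh60, with a log2 fold change of -0.46 (SE 0.098, edgeR adjusted p = 0.00168). With LacZ replicate 3 left out the change was -0.36 and did not pass (edgeR adjusted p = 0.153). The labels call the line a lung carcinoma, but all 8 embryonal carcinoma markers were at 1 CPM or more in every library and summed to 3932 to 4315 CPM. Of 8 lung epithelium markers only AGER reached 1 CPM in every library, SFTPB and SCGB1A1 were at 0 counts, which allows 0.0663 to 0.0998 CPM by library (3 counts), and NKX2-1 had a single count in 1 library.

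Of the 9 genes, NR2F2 and RARB rose in sh60, STRA6, RARG and CRABP1 fell, and RARA, CRABP2, CYP26A1 and NR2F1 did not pass. The 5 calls are 55.6% of the list, beside 28.8% of the 16040 genes tested (4624 genes; 15.8% higher and 13% lower). Over all genes 54.9% of calls were higher in sh60, and 44% were once trends on GC content and gene length were removed (2923 higher and 3717 lower). The median log2 fold change of the list was -0.09 and that of all tested genes was -0.0042. The sh60 libraries lay wholly above or below the LacZ libraries for 6 of the 9 genes (66.7%), beside 64.4% of all tested genes. They were 3 above (32.1% of all tested genes) and 3 below (32.3%). The calls of NR2F2, RARB, STRA6, RARG and CRABP1 were kept when any 1 library was left out. Lower RNA per cell and fewer cells that express a gene cannot be told apart in bulk libraries.

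**Figure D1:**
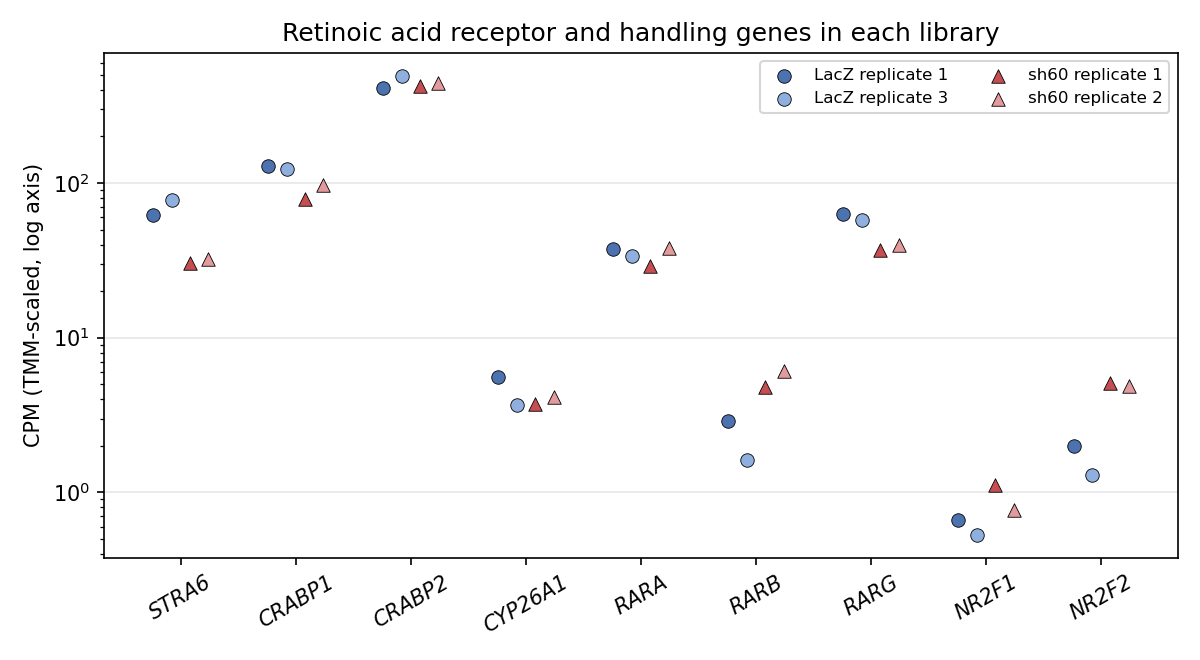
Level of each of the 9 genes in each library, in TMM-scaled CPM on a log axis, with circles for LacZ and triangles for sh60. The triangles lie below both circles for STRA6, CRABP1 and RARG and above both circles for RARB, NR2F1 and NR2F2.

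STRA6, the membrane receptor that takes up retinol from its carrier in blood, had the largest fall of the 9 genes. It lies on the minus strand of chromosome 15, 74471808 to 74502046 (hg19). STRA6 measured 61.9 and 78.1 CPM in LacZ, against 30.3 and 32.1 CPM in sh60. The sh60 libraries lay close together and well below both LacZ libraries, of which replicate 1 was nearer to them. The log2 fold change was -1.16 (SE 0.11, 95% confidence interval -1.40 to -0.93, edgeR adjusted p = 5.68e-07), a level 2.24-fold lower in sh60. It ran from -1.32 without LacZ replicate 1 to -0.99 without LacZ replicate 3.

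The cellular retinoic acid binding proteins were by far the most abundant transcripts of the list. CRABP1 (chromosome 15, 78632666 to 78640572, plus strand) is linked with sequestering retinoic acid in the cytoplasm and handing it to breakdown. It measured 128.5 and 122.6 CPM in LacZ, against 78.3 and 97.7 CPM in sh60. Both sh60 libraries were lower, with replicate 2 nearer to LacZ. CRABP1 fell by 0.51 on the log2 scale (SE 0.10, 95% confidence interval -0.72 to -0.30, edgeR adjusted p = 0.000817), and by 0.36 without sh60 replicate 1. CRABP2 (chromosome 1, 156669400 to 156675608, minus strand), which delivers retinoic acid to the receptors, measured 409 and 492 CPM in LacZ. In sh60 it measured 423 and 440.3 CPM, between the LacZ values. It did not pass (log2 fold change -0.06, SE 0.089, 95% confidence interval -0.25 to 0.13, edgeR adjusted p = 0.655), and the sign turned without LacZ replicate 3 (0.08). Per kilobase of exon, CRABP1 made up 32.1% and 27.3% of the CRABP pair in LacZ replicates 1 and 3, and 21.8% and 25.1% in sh60.

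CYP26A1 (chromosome 10, 94833232 to 94837641, plus strand), the enzyme that oxidises retinoic acid to inactive forms, was low in every library. It measured 5.60 and 3.69 CPM in LacZ, against 3.73 and 4.15 CPM in sh60, on 111 to 236 counts. The sh60 values lay within the range of the LacZ values. The log2 fold change of -0.25 (SE 0.20, 95% confidence interval -0.66 to 0.16, edgeR adjusted p = 0.368) did not pass and turned to 0.10 without LacZ replicate 1. The interval includes no change as well as a fall of about the size seen in RARG.

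The 3 retinoic acid receptor genes each behaved differently. RARG (chromosome 12, 53604350 to 53626040, minus strand), the receptor known as prominent in undifferentiated embryonic cells, measured 62.6 and 57.7 CPM in LacZ, against 36.9 and 39.8 CPM in sh60. The groups were tight and did not overlap. RARG fell by 0.65 on the log2 scale (SE 0.098, 95% confidence interval -0.85 to -0.44, edgeR adjusted p = 7.25e-05), and its value moved only between -0.71 and -0.58 when a library was left out.

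RARB (chromosome 3, 25215823 to 25639422, plus strand), known for its induction by retinoic acid through the DR5 shown above, rose from low levels. It measured 2.90 and 1.63 CPM in LacZ, against 4.79 and 6.08 CPM in sh60, on 122, 49, 163 and 275 counts. Both sh60 libraries were above both LacZ libraries, and LacZ replicate 1 lay between LacZ replicate 3 and sh60. The log2 fold change was 1.23 (SE 0.22, 95% confidence interval 0.76 to 1.70, edgeR adjusted p = 0.000409), a level 2.35-fold higher. It ran from 0.91 without LacZ replicate 3 to 1.75 without LacZ replicate 1.

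RARA (chromosome 17, 38465423 to 38513895, plus strand), the most widely expressed of the receptors, measured 37.7 and 33.7 CPM in LacZ, against 28.95 and 38.1 CPM in sh60. The sh60 libraries enclosed the LacZ values, so the groups overlapped. RARA did not pass (log2 fold change -0.09, SE 0.12, 95% confidence interval -0.34 to 0.16, edgeR adjusted p = 0.629). Its value rested on which sh60 library was used: without sh60 replicate 2 it was -0.30 and passed (edgeR adjusted p = 0.0281), and without sh60 replicate 1 it was 0.09 (edgeR adjusted p = 0.505).

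**Figure D2:**
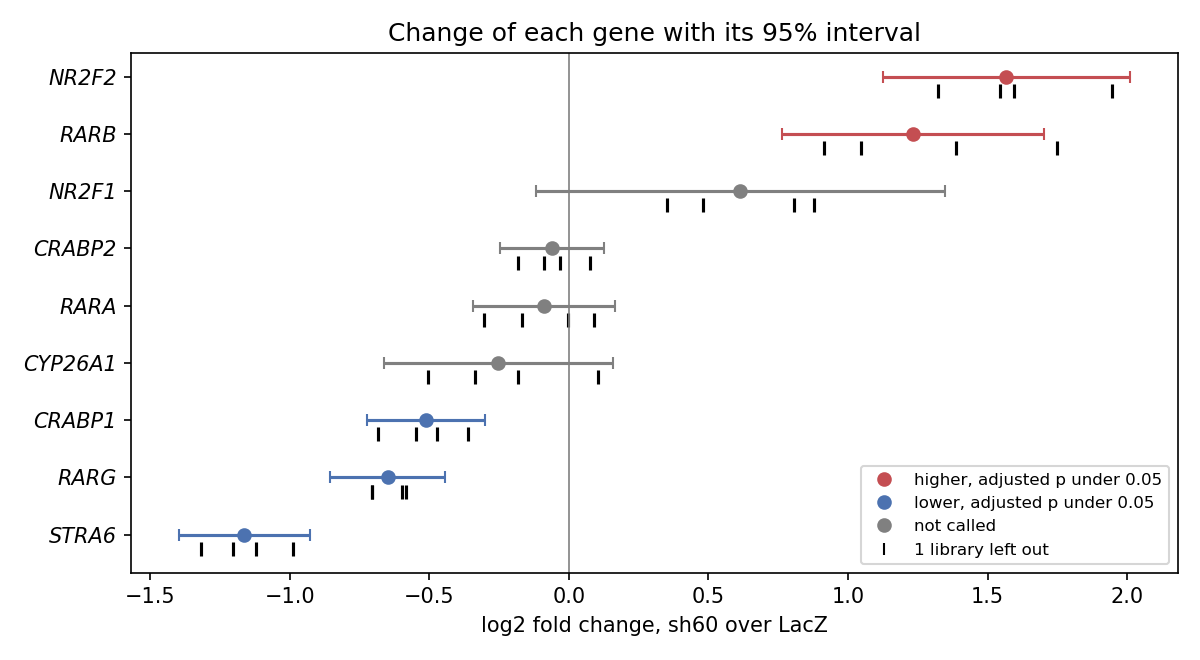
Log2 fold change of sh60 over LacZ for each gene with its 95% confidence interval (bars), coloured by the edgeR call, and the values with 1 library left out (ticks). NR2F2 (1.57) and RARB (1.23) are on the right, STRA6 (-1.16) is on the left, and the intervals of RARA, CRABP2, CYP26A1 and NR2F1 include 0.

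The receptor transcripts of sh60 held a smaller share of RARG and larger shares of RARA and RARB. Per kilobase of exon (RPKM), RARG made up 65.9% and 67.2% of the summed RAR transcripts in LacZ replicates 1 and 3, and 57.4% and 52.7% in sh60. RARB made up 2.95% and 1.84% in LacZ and 7.20% and 7.76% in sh60. The share of RARA was 31.2% and 30.9% in LacZ and 35.4% and 39.6% in sh60, a higher share at a level that did not pass the test. The shares did not overlap between groups for any of the 3 genes, but they add up to the whole in each library and are not 3 separate results. In CPM the groups did not overlap for 64.4% of all tested genes. The summed level was 26.4 ± 1.90 RPKM (SD, n = 2) in LacZ and 20.4 ± 2.34 RPKM (SD, n = 2) in sh60. With 2 libraries against 2, an exact permutation test of such a share cannot go below p = 0.333 (two-sided), so these shares are descriptions.

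**Figure D3:**
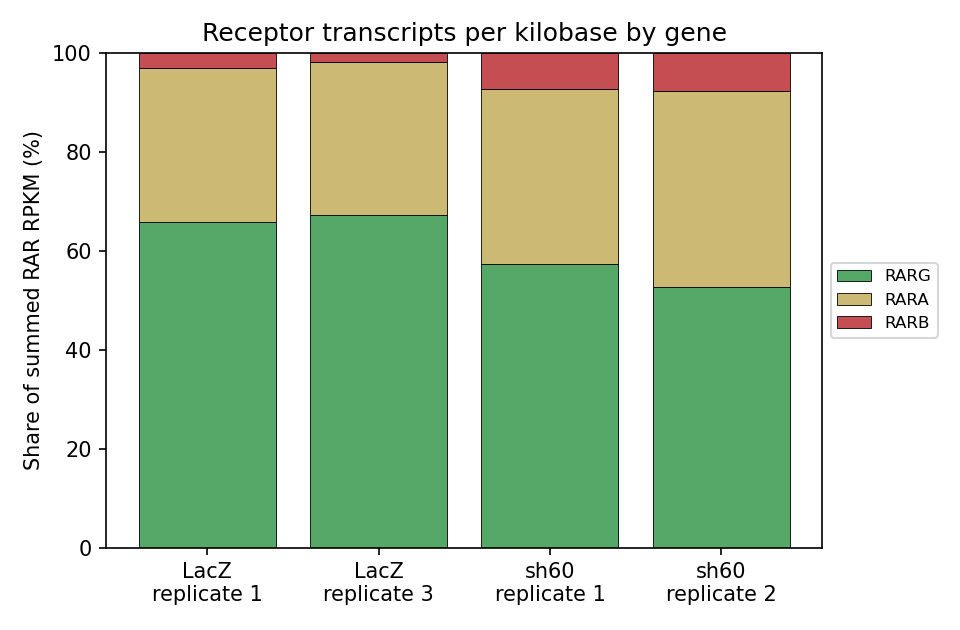
Share of each RAR gene in the summed RPKM of RARA, RARB and RARG, in percent, with 1 stacked bar for each library. RARG takes 65.9% and 67.2% in the LacZ libraries and 57.4% and 52.7% in the sh60 libraries, and RARB takes 2.95% and 1.84% against 7.20% and 7.76%.

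Of the COUP-TF genes, NR2F2 had the largest rise of the list. NR2F2 (COUP-TFII; chromosome 15, 96869157 to 96883492, plus strand) is an orphan receptor of mesenchyme, vessels and the nervous system that can compete for the DNA sites of the retinoid receptors. It measured 1.99 and 1.30 CPM in LacZ, against 5.08 and 4.90 CPM in sh60, on 84, 39, 173 and 222 counts. The sh60 libraries nearly coincided and lay above both LacZ libraries. The log2 fold change was 1.57 (SE 0.21, 95% confidence interval 1.12 to 2.01, edgeR adjusted p = 2.15e-05), a level 2.96-fold higher.

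NR2F1 (COUP-TFI; chromosome 5, 92919043 to 92930315, plus strand), its close relative in the developing nervous system, stayed under 1.2 CPM in all libraries. It had 28 and 16 counts in LacZ, against 38 and 35 counts in sh60, which came to 0.665, 0.532, 1.12 and 0.773 CPM. Both sh60 values were above both LacZ values, but the log2 fold change of 0.61 (SE 0.35, 95% confidence interval -0.12 to 1.35, edgeR adjusted p = 0.204) did not pass. The interval is wide at this depth and includes the change of RARB.

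Markers of the embryonal carcinoma state and of other cell types moved in the same libraries. Of the 8 embryonal carcinoma markers 4 fell by edgeR (DNMT3B -0.72, TDGF1 -0.49, SALL4 -0.31 and NANOG -0.25, as log2 fold changes) and SOX2 rose (0.31), while POU5F1, LIN28A and DPPA4 did not pass. Of 8 neuronal markers 7 were tested, and 5 rose by edgeR: SNAP25 (2.35), STMN2 (1.80), MAP2 (0.87), SYT1 (0.57) and TUBB3 (0.41). DCX (-0.35) and ELAVL3 (-0.36) pointed down but did not pass, so 0 fell (0 also at an unadjusted p of 0.05 and by DESeq2 and limma-voom). The neuronal sums, mostly TUBB3 and MAP2, were 212.5 to 228.6 CPM in LacZ and 317 to 340.3 CPM in sh60, with NEUROD1 at 0 counts throughout. Beside these marker counts, 15.8% of all tested genes were called higher and 13% lower. Of 8 fibroblast markers 4 rose and 1 fell, with sums of 424.4 to 521 CPM in LacZ and 911 to 1074 CPM in sh60, and 0 of the 8 markers at 0 counts. The higher sum came from COL1A1, a chain of type I collagen. The other 7 markers summed to 379.6 and 339.5 CPM in LacZ, against 357.2 and 390.3 CPM in sh60. This level sum hides changes of single genes. COL1A2 (log2 fold change 2.13), LUM (1.61) and POSTN (0.98) also rose, while THY1, more abundant than these, fell (-0.34). COL3A1, DCN and PDGFRB did not pass. Blood markers summed to 2.14 to 2.82 CPM in all libraries, with PTPRC and HBB at 0 counts. The part of these marker changes in the values of the 9 genes was not tested. LacZ replicate 1 lay on the sh60 side of LacZ replicate 3 for 3 of the 5 called genes (STRA6, RARB and NR2F2), as for 3296 of all 4624 called genes (71.3%).

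Compared per kilobase of exon, the order of the LacZ means was CRABP2 (387 RPKM), CRABP1 (163 RPKM), RARG (17.5 RPKM), STRA6 (13.1 RPKM), RARA (8.19 RPKM), CYP26A1 (1.87 RPKM), RARB (0.638 RPKM), NR2F2 (0.269 RPKM) and NR2F1 (0.161 RPKM). Each gene in this order was above the next in both LacZ libraries. In sh60 STRA6 (5.85 RPKM) stood below RARA (7.68 RPKM), and RARB (1.53 RPKM) reached the level of CYP26A1 (1.59 RPKM), where the libraries of the 2 genes overlapped. The list thus spanned from CRABP2, within the top 0.717% of tested genes per kilobase in LacZ, to NR2F1 at the 94.2% mark of the ranking.

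The libraries' pattern of NR2F2 was compared with that of 11747 tested genes whose average log2 CPM was at least 2, by the distance between their 4 log2 CPM values, each centred on the gene's mean. The nearest were ANXA3 (distance 0.0836), AHNAK (0.0837) and PLXNC1 (0.0982), all higher in sh60. For STRA6 they were NLRC3 (0.0972), HAS3 (0.110) and ADGRB1 (0.113), all lower in sh60. These directions follow from choosing genes by likeness over the same 4 libraries and are not separate results. NR2F2 itself, at an average log2 CPM of 1.78, was under the minimum set for the compared genes.

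The wider pathway was described from 5 lists with 73 other genes, of which 60 passed the filter. Of these, 9 were higher, 20 were lower and 31 missed the threshold of the edgeR test, so 48.3% were called beside 28.8% of all tested genes, and their median log2 fold change was -0.12. Leaving out a LacZ library reduced the counts to 5 higher and 11 lower (without replicate 1) and to 2 higher and 7 lower (without replicate 3).

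Of 13 tested genes that supply or bind retinoids, 2 rose and 3 fell, with a median log2 fold change of 0.08. The calls are 38.5% of this list, beside 28.8% of all tested genes. DHRS3, which reduces retinaldehyde back to retinol and is itself a known retinoic acid target, rose from 6.65 to 11.5 CPM (edgeR adjusted p = 0.000363) and kept its call under every alternative run. FABP5, a fatty acid binding protein that also carries retinoic acid, rose from 33.0 to 40.6 CPM (edgeR adjusted p = 0.0457) and is named after its value was seen. LRAT, which stores retinol as esters, fell from 94.2 to 73.9 CPM, and RDH11, a retinal reductase, from 63.6 to 49.9 CPM. Without LacZ replicate 3 the list had 1 higher and 0 lower, with LRAT at -0.24 (edgeR adjusted p = 0.408) and RDH11 at -0.31 (0.249). Without LacZ replicate 1, RDH11 at -0.39 (0.0949) and FABP5 at 0.34 (0.179) were not called. FABP5 was also lost without LacZ replicate 3 (0.26, 0.382) and without sh60 replicate 1 (0.17, 0.166). ALDH1A2 and ALDH1A3, which make retinoic acid and are named after their values were seen, did not pass (log2 fold changes -0.12 and 0.20, edgeR adjusted p = 0.843 and 0.229). TTR and ADH7 had 0 counts in all libraries, which allows 0.0663 to 0.0998 CPM.

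Among 3 tested cytochrome P450 genes linked with retinoids, 2 fell and 0 rose by edgeR, also 0 at an unadjusted p of 0.05 and by DESeq2 and limma-voom. The 2 calls are 66.7% of this short list, beside 28.8% of all tested genes. CYP26B1, the other main retinoic acid hydroxylase, went from 1.53 to 0.835 CPM (log2 fold change -0.90, SE 0.29, edgeR adjusted p = 0.0243). That call was lost with LacZ replicate 1 left out (-0.60, adjusted p = 0.327), with either sh60 library left out (-0.93, adjusted p = 0.0629 for replicate 1 and -0.87, adjusted p = 0.111 for replicate 2) and by DESeq2 (0.142). CYP1B1, which can oxidise retinol and so belongs to synthesis rather than breakdown, fell from 65.2 to 45.4 CPM and kept its call throughout.

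Among the partner and related nuclear receptors, counted below as partner receptors, more genes fell than rose. The 3 RXR genes of this list are the partners of the RARs. Of 8 tested genes 4 fell and 0 rose by edgeR, also 0 at an unadjusted p of 0.05 and by DESeq2 and limma-voom. The 4 calls are 50% of the list, beside 28.8% of all tested genes (13% lower and 15.8% higher). The median log2 fold change was -0.29. RXRG, 1 of the 3 RXR partners of the RARs, measured 16.2 and 16.4 CPM in LacZ, against 6.90 and 7.71 CPM in sh60. Its log2 fold change was -1.16 (SE 0.13, edgeR adjusted p = 2.70e-06), as large as that of STRA6, and it kept its call under every alternative run. RXRA fell from 44.8 to 36.1 CPM, while RXRB, named after its value was seen, did not pass (log2 fold change -0.03, edgeR adjusted p = 0.870). NR6A1, an orphan receptor of germ and embryonic cells, fell from 235.3 to 179.5 CPM and NR2F6, a relative of the COUP-TFs, from 110.9 to 89.5 CPM. Without LacZ replicate 1, RXRA (-0.30, edgeR adjusted p = 0.241) and NR2F6 (-0.31, 0.197) were not called. Without LacZ replicate 3, RXRA (-0.32, 0.218), NR2F6 (-0.31, 0.227) and NR6A1 (-0.31, 0.188) were not called.

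Of 15 tested corepressor and coactivator genes 6 fell and 2 rose, with a median log2 fold change of -0.20. The calls are 53.3% of this list, beside 28.8% of all tested genes. ZNF423, a zinc finger cofactor of the retinoic acid receptors, fell from 120.3 to 86.3 CPM (edgeR adjusted p = 0.000447) and kept its call throughout. HDAC3, the histone deacetylase of the receptor corepressor complex, fell from 70.6 to 56.1 CPM. TBL1XR1, another subunit of that complex, fell from 143.8 to 115.4 CPM. NRIP1, a ligand-dependent corepressor, fell from 146.2 to 113.7 CPM. Without LacZ replicate 1, HDAC3 (-0.35, edgeR adjusted p = 0.137), TBL1XR1 (-0.37, 0.0925) and NRIP1 (-0.37, 0.0904) were not called, nor were they without LacZ replicate 3 (-0.30, 0.251; -0.26, 0.324; -0.35, 0.129). The list then had 1 lower and 0 higher in either fit. The 2 that rose, named after their values were seen, were LCOR (log2 fold change 0.37) and NCOA3 (0.31), and both were lost in each fit with a single LacZ library (0.42 and 0.30 if replicate 1 was dropped, 0.33 and 0.33 if replicate 3 was dropped). LCOR was also lost without sh60 replicate 1 (0.21).

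Known retinoic acid targets went both ways: of 21 tested, 5 rose, 5 fell and 11 did not pass, with a median log2 fold change of 0.09. The calls are 47.6% of this list, beside 28.8% of all tested genes. CDX1, a caudal homeobox gene, measured 40.7 and 42.8 CPM in LacZ, against 13.3 and 14.2 CPM in sh60 (log2 fold change -1.60, SE 0.11, edgeR adjusted p = 1.26e-08). TSHZ1, a zinc finger gene, fell from 5.46 to 2.74 CPM. RAI14, named for its induction by retinoic acid, rose from 126.6 to 210.8 CPM and RARRES2, the secreted chemerin, from 42.1 to 57.9 CPM. CDX1, TSHZ1 and RAI14 kept their calls under every alternative run, while RARRES2 lost its call without LacZ replicate 3 (0.46, edgeR adjusted p = 0.0542).

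The other targets that rose, named after their values were seen, were TGM2 (0.79), RARRES1 (1.28) and RAI1 (0.40), given as log2 fold changes. HOXB1 (-1.19) and RET (-0.39) were among those that fell. HOXB1, a direct retinoic acid target of the hindbrain, spread widely in sh60 (0.910 and 2.39 CPM, below 3.56 and 4.29 CPM in LacZ). Without LacZ replicate 3 the list had 1 higher and 3 lower, with TGM2 (0.67, edgeR adjusted p = 0.0807), RARRES1 (1.43, 0.0846), RAI1 (0.29, 0.316) and RET (-0.29, 0.279) among those not called. RARRES1 lost its call whichever library was left out, with 9 to 28 counts per library. TGM2 (0.64, 0.121) and RAI1 (0.30, 0.109) were also lost without sh60 replicate 2.

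**Figure D4:**
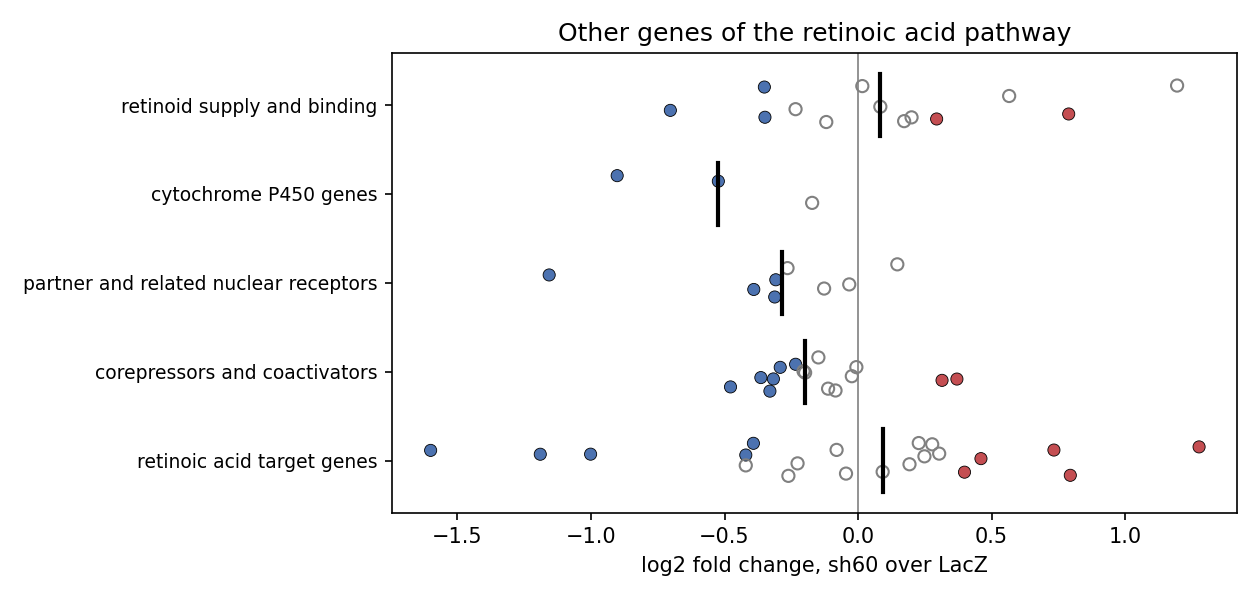
Log2 fold change of sh60 over LacZ for the 60 tested genes of the 5 pathway lists, 1 point for each gene, filled where the edgeR test called it higher (red) or lower (blue) and open where it did not, with a black bar at each list's median. The medians run from -0.52 in the cytochrome P450 genes to 0.09 in the retinoic acid targets, and points called higher lie in 3 of the 5 lists.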

How the data were processed

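The values are raw counts of reads per gene, 1 table for each library, as the authors deposited them. Alignment was to hg19 (GRCh37) by STAR 2.7.6a, per the submitters' processing notes, and reads were counted over exons with featureCounts 2.0.0 with strand setting 2, per the file headers. No option for reads that map to several places is given there, so by default these were left out. The library kit keeps strand, per the labels' protocols.

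Counts were tested in R 4.3.3 with the quasi-likelihood test of edgeR 4.0.16, with TMM scaling, filterByExpr (16040 genes kept), group as the only term and Benjamini-Hochberg adjustment over all genes tested at 0.05. SEs and 95% confidence intervals are those of the log2 fold change. RPKM divides CPM by exon length in the files. The script was tested on simulated data. Alternatives were DESeq2 1.42.0, limma-voom (limma 3.58.1), other scalings and filters, removal of GC and length trends (GC from GENCODE transcripts for 97.2% of tested genes), and each library left out. The members and lists were chosen with earlier results of these data known. From each list the rule named at most 4 called genes, by smallest p, or at most 2 if no gene was called, and some called genes are counted but not reported here by name. The promoter sequences are from RefSeq, and all 9 genes matched. Protein sequences were not used here. Intervals and floors cover counting error and the spread between libraries only.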

Additional observations from a re-analysis of the deposited data

How the results depend on the processing

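Of the 9 genes, the calls of STRA6, CRABP1, RARB, RARG and NR2F2 kept their direction and stayed past the threshold under all 12 alternatives. When a library was left out, CRABP2 ran from -0.18 to 0.077, CYP26A1 from -0.50 to 0.10 and RARA from -0.30 to 0.0898 (log2 fold change), turning sign without LacZ replicate 3, LacZ replicate 1 and sh60 replicate 1 in that order. NR2F1 could not be tested at 1 CPM in 2 libraries, which drops it. Over all genes, leaving out a library gave 1331 to 2789 higher and 956 to 2697 lower. With GC and length trends removed, 3717 genes and 10 cofactor genes were lower. Pathway counts with a library left out were 2 to 8 higher and 7 to 22 lower over all lists, 1 to 2 and 0 to 3 for supply and binding, 1 to 2 lower for the cytochrome P450 genes, 1 to 5 lower for partner receptors, 0 to 2 and 1 to 8 for cofactors and 1 to 5 and 3 to 5 for targets. Upper-quartile scaling, DESeq2 and limma-voom each left 1 supply gene higher, and DESeq2 gave 1 cytochrome P450 gene lower and 3 targets higher. The same range was -0.071 to 0.0020 for RXRB and -0.354 to 0.249 for ALDH1A2, positive without sh60 replicate 1 and without LacZ replicate 1. The cause of these differences was not tested. In fits that leave 1 library in a group, that library is assumed to vary like the others. No paired analysis was possible because the groups share only 1 replicate number. Low counts limit NR2F1, RARB and NR2F2 most.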

Other observations

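The genes nearest to STRA6 on chromosome 15 were both lower in sh60. ISLR, which lies 2.60 kb from STRA6 (74466087 to 74469212, hg19), measured 15.6 and 17.4 CPM in LacZ, against 3.61 and 3.80 CPM in sh60, a log2 fold change of -2.15 (SE 0.14, edgeR adjusted p = 1.13e-08). This fall exceeded that of STRA6 and was called under every alternative run. CCDC33, 26.6 kb to the other side, went from 0.872 to 0.279 CPM (log2 fold change -1.61, edgeR adjusted p = 0.00590), and was not called without LacZ replicate 3 (-1.35, 0.0716) or without sh60 replicate 2 (-1.53, 0.0581). Over the 9 genes, 10 of the 18 nearest tested neighbours were called (55.6%), 6 higher and 4 lower, beside 28.8% of all tested genes (15.8% higher and 13% lower). Of the 10 neighbours beside a called gene, 5 were called in the same direction as that gene. Besides ISLR and CCDC33 these were IREB2 (89.9 kb from CRABP1), THRB (680 kb from RARB) and ARRDC4 (1620 kb from NR2F2), so not all lay close by. Genes that overlap a member were not counted: TOP2B (over RARB) and RARA-AS1 (over RARA), and neither was called. The neighbours were looked up after the values were seen.

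NR2F1-AS1 lies on the opposite strand to NR2F1, and its annotated start is 2.02 kb from that of NR2F1, so the 2 genes point away from each other. NR2F1-AS1 measured 0.451 and 0.532 CPM in LacZ, against 0.881 and 1.06 CPM in sh60 (log2 fold change 1.00, SE 0.35, edgeR adjusted p = 0.0365). The call was lost when any 1 library was left out (log2 fold changes from 0.85 to 1.12, edgeR adjusted p from 0.0545 to 0.206) and by DESeq2 (0.204).

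Besides RARB and CYP26A1, 10 other tested genes had a DR5 match in a RefSeq promoter window. Only 11586 of the 16040 tested genes had such a window under the same name, so a match in the others could not be found. The share called among the 11586 genes was not computed. Of all 12, 4 were higher, 0 were lower and 8 did not pass the edgeR test, so 33.3% were called beside 28.8% of all tested genes. At an unadjusted p of 0.05, 2 were lower, and by DESeq2 and limma-voom 0 were. The 4 were RARB, ATXN1L, CFLAR and FSCN2. Without LacZ replicate 3, ATXN1L (0.44, edgeR adjusted p = 0.0530), CFLAR (0.47, 0.0505) and FSCN2 (0.89, 0.151) were not called, and FSCN2 was also lost without sh60 replicate 1 (1.02, 0.0796), without sh60 replicate 2 (1.09, 0.0874) and by DESeq2 (1.07, 0.146).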
